A study of Mus musculus with 10 samples.

Results

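Amino acids cross cell membranes on carrier proteins of several solute carrier (Slc) families, and most amino acids can use more than 1 carrier. Some carriers take amino acids up along the sodium or proton gradient. Others are exchangers that let one amino acid out as another comes in, and several exchangers reach the cell surface only when bound to a glycoprotein heavy chain. Cells that sense a shortage of amino acids or another stress raise the transcription factor ATF4, and genes for several of these carriers are known ATF4 targets. In pancreatic α cells amino acids stimulate glucagon secretion, and in mice the glutamine carrier Slc38a5 takes part in the α cell proliferation that follows a rise of plasma amino acids.

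The members are the genes whose symbol starts with Slc1a, Slc3a, Slc6a, Slc7a, Slc36a, Slc38a or Slc43a and a number. They are 64 entries with 63 symbols among the 33212 genes of the count table. RNA with poly-A tails was sequenced from αTC1, a mouse line from a glucagon-producing pancreatic tumour, grown in low-glucose medium with serum. Of the 10 libraries 5 came from cells given 10 μM enzalutamide, an antagonist of the androgen receptor used in prostate cancer, for 48 h. The other 5 came from cells given DMSO for 48 h. All libraries are from 1 tumour line, a limit on how far they stand for α cells of an islet, and the labels call the 5 libraries of each group biological replicates without saying whether they were separate cultures.

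Each library held between 59557697 and 68603842 counts, and levels are given in CPM, counts scaled to a common library size. A count of 0 allows up to 3 counts, or 0.0437 to 0.0504 CPM. The groups lay apart on the first principal component (49.1% of the variance), and enzalutamide libraries 2 and 5 lay farthest apart on the second (12.13 and -13.61). All 7 α cell markers were detected, with a summed level of 18415 to 19628 CPM in DMSO and 10936 to 12231 CPM in enzalutamide, and Gcg made up most of it. Ins1, Pdx1, Sst, Ppy and Ptprc, markers of β, δ and PP cells and of blood cells, had 0 counts in every library. Other markers on these lists had counts, among them Ins2 (340 in all), Mafa (666) and Cd68 (535). The summed β cell markers stood at 1.11 to 2.84 CPM in DMSO and 1.01 to 2.19 CPM in enzalutamide, and the macrophage markers at 0.638 to 1.52 and 0.64 to 0.984 CPM. The summed markers of ducts reached at most 12.1 CPM, those of acinar cells 8.09 CPM and those of fibroblasts 9.91 CPM, and their part in the results was not tested. Fewer cells of a type and less RNA per cell cannot be told apart in such bulk RNA.

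Of the 64 entries 17 had no count in any library, 13 had counts below the limit for testing and 34 were tested. Enzalutamide-treated cells had higher transcript levels of 17 of these 34 and lower levels of 5, while 12 did not pass (edgeR's quasi-likelihood test, Benjamini-Hochberg adjusted p under 0.05 over all 14156 genes tested). Among all genes tested 37.8% were called, 19.0% higher and 18.8% lower. Of all called genes 50.3% were higher, and 60.7% were with libraries scaled to total counts, a setting that gave 17 members higher and 4 lower. Among members that passed, the largest rises were those of Slc6a9 (glycine), Slc7a3 (arginine and lysine) and Slc7a11 (cystine), and the largest fall that of Slc38a5 (glutamine, asparagine and histidine). For 20 of the 34 members the CPM values of the groups did not overlap, against 26.8% of all genes tested. The median log2 fold change (enzalutamide against DMSO) was 0.18 over the 34 members and 0.01 over all genes, and the median absolute value 0.29 and 0.16. More than 2-fold rises passed for 3 members (1.03% of all genes) and more than 2-fold falls for 0 (0.713% of all genes). Of the members that fell, Slc38a5 came closest, with a 1.99-fold fall.

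**Figure D1:**
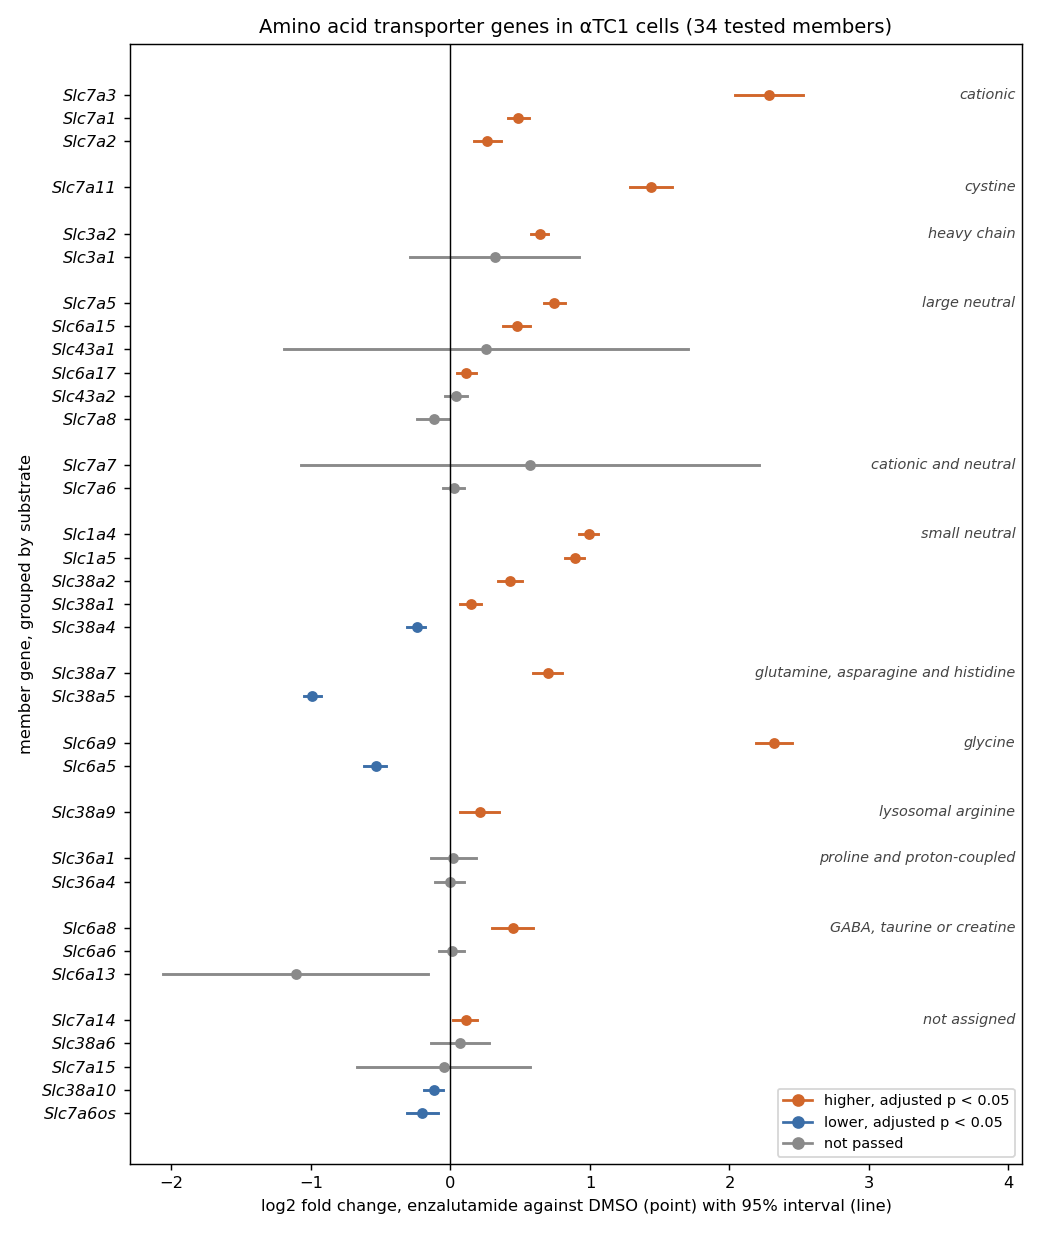
Log2 fold changes of the 34 tested members, enzalutamide against DMSO, with their 95% intervals, in rows by transported substrate. Slc6a9, Slc7a3 and Slc7a11 lie above 1, Slc38a5 lies at -0.99, and the widest intervals belong to members of low expression.

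Promoter sequences are shown for 3 members, because the motif that ATF4 is known to bind together with C/EBP proteins, TGATGNAA, was searched in them on both strands. RefSeq promoters on GRCm38.p6, each from 250 bases before to 50 bases after an annotated start, were found for 45 of the 63 symbols. The motif was present in a promoter of 3 of these 45, namely Slc1a4, Slc7a11 and Slc7a7, and in 4.51% of all 27025 genes in the table (3.97% of promoters). Among risers with an entry 2 of 10 held it, among members that fell 0 of 5, and Slc7a7, the third, did not pass. A promoter of Slc7a7 holds 2 matches, at -141 and -1. The Slc7a11 promoter (chr3:50443564-50443863, minus strand) has the motif at -66 and, on the other strand, at -47, counted to its first base from the start at 1. In Slc1a4 (chr11:20332664-20332963, minus strand) it lies on the other strand, with its first printed base at -4. The promoter of Slc38a5 (chrX:8271131-8271430, plus strand), the member with the largest fall among those that passed, has no match and is shown beside them. No promoter entry of Slc6a9, a member among the largest rises, has a match either. The risers Slc7a3, Slc7a5 and Slc1a5 had no promoter entry. Motif matches are in capitals.
Slc7a11: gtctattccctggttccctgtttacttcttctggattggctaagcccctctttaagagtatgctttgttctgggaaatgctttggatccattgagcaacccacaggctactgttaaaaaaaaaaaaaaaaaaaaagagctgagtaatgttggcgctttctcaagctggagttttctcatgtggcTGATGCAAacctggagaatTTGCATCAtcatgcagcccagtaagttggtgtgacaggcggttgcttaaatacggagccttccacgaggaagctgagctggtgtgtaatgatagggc
Slc1a4: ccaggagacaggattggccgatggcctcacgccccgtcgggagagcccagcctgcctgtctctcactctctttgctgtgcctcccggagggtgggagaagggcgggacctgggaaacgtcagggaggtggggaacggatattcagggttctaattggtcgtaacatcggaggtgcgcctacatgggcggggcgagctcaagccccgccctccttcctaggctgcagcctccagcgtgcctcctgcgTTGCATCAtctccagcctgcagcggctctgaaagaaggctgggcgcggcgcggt
Slc38a5: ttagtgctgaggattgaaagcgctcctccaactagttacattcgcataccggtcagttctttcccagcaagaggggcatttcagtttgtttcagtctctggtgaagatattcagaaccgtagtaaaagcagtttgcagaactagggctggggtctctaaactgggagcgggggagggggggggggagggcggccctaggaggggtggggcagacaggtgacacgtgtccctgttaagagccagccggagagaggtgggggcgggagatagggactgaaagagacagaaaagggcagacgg
A match describes these letters only, and a window without one says nothing of binding elsewhere. A second motif, TGACNNNGC, is bound by the antioxidant factor NRF2. It was found in a promoter of 9 of the 45 symbols and in 14% of all genes. Among risers with an entry 3 of 10 held it, namely Slc6a9, Slc38a2 and Slc7a1 but not Slc7a11. Among members that fell 0 of 5 held it. Of members that did not pass 4 of 11 held it (Slc36a1, Slc43a1, Slc6a13 and Slc7a6), and of those not tested 2 of 19. None of the 3 promoters printed holds this second motif.

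Levels of different genes were compared as CPM per kilobase of annotated exon. In DMSO Slc38a5 was the most abundant member at 435 ± 13.6 CPM per kb (SD, n = 5), followed by Slc38a4 at 134 ± 3.82 and Slc7a2 at 84.6 ± 3.31. Slc7a5 came next at 67.5 ± 2.63 CPM per kb, then the heavy chain Slc3a2 at 59.3 ± 0.904 and Slc6a5 at 52.5 ± 1.15. Neighbours in this order of 6 differed by more than their SDs. In enzalutamide Slc38a5 was still first at 218 ± 4.75 CPM per kb, while Slc38a4 at 114 ± 4.45 and Slc7a5 at 113 ± 4.15 lay within their spread of each other. Summed over all members the level was 1109.8 ± 19.9 CPM per kb in DMSO and 1032 ± 15.1 in enzalutamide. Slc38a5 alone made up 39.2 ± 0.619% of that sum in DMSO and 21.2 ± 0.493% in enzalutamide. Exon lengths take in every annotated isoform, so genes with long isoforms that these cells do not use appear too low.

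The members grouped here as carriers of glutamine, asparagine and histidine included 2 tested genes, 1 lower and 1 higher. Slc1a5, Slc38a1, Slc38a2 and Slc38a4, which also carry glutamine, were grouped with the carriers of small neutral amino acids below. Slc38a5, a sodium-coupled system N carrier of the cell surface (ENSMUSG00000031170; chromosome X, 8271133 to 8280179 of GRCm38/mm10), stood at 922, 977, 1002, 984 and 985 CPM in DMSO libraries 1 to 5. In the enzalutamide libraries it stood at 482, 506, 480.4, 485 and 495 CPM. All enzalutamide values were below all DMSO values and close to one another. The log2 fold change of Slc38a5 was -0.99 (standard error 0.0283, adjusted p = 4.59e-14). Slc38a7, which exports glutamine and asparagine from lysosomes, moved the other way. Its DMSO values were 39, 39.5, 42, 35.9 and 35.3 CPM and its enzalutamide values 62.8, 60.9, 59.7, 64.9 and 62.1 CPM, without overlap. Slc38a7 rose with a log2 fold change of 0.70 (standard error 0.0495, adjusted p = 8.55e-09). Slc38a3, the other system N carrier, had 4 counts in all, in a single DMSO library, and Slc38a8 had 17 counts in all.

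Both members grouped here under glycine, Slc6a9 and Slc6a5, were tested, and they changed in opposite directions. Slc6a9, which encodes the glycine carrier GlyT1 (ENSMUSG00000028542; chromosome 4, 117834506 to 117875198), had 10.4, 8.84, 8.76, 9.19 and 10.03 CPM in DMSO. With enzalutamide it had 50.3, 46.7, 47.6, 42.8 and 48.4 CPM, far above the highest DMSO value in every library. The log2 fold change of Slc6a9 was 2.32 (standard error 0.0619, adjusted p = 1.93e-14). Slc6a5, which encodes GlyT2, a carrier best known from glycinergic neurons (chromosome 7, 49910146 to 49963856), had 375, 382, 372, 390.3 and 370.5 CPM in DMSO. In enzalutamide Slc6a5 had 260.3, 243, 260, 254 and 285 CPM, all below the DMSO values, with a log2 fold change of -0.54 (standard error 0.0368, adjusted p = 5.38e-09). Per length, Slc6a9 made up 3.38 ± 0.284% of the pair in DMSO and 20.2 ± 1.04% in enzalutamide, so Slc6a5 was the more abundant in every library. The exons of Slc6a9 share 1429 bases (27.8%) with Ccdc24 on the opposite strand, and the sources used here do not give the strand setting of the counting. Ccdc24 itself averaged 0.919 ± 0.446 CPM without and 3.03 ± 1.08 CPM with enzalutamide (log2 fold change 1.72, adjusted p = 0.000445), and reads of the pair cannot be told apart in the shared bases.

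**Figure D2:**
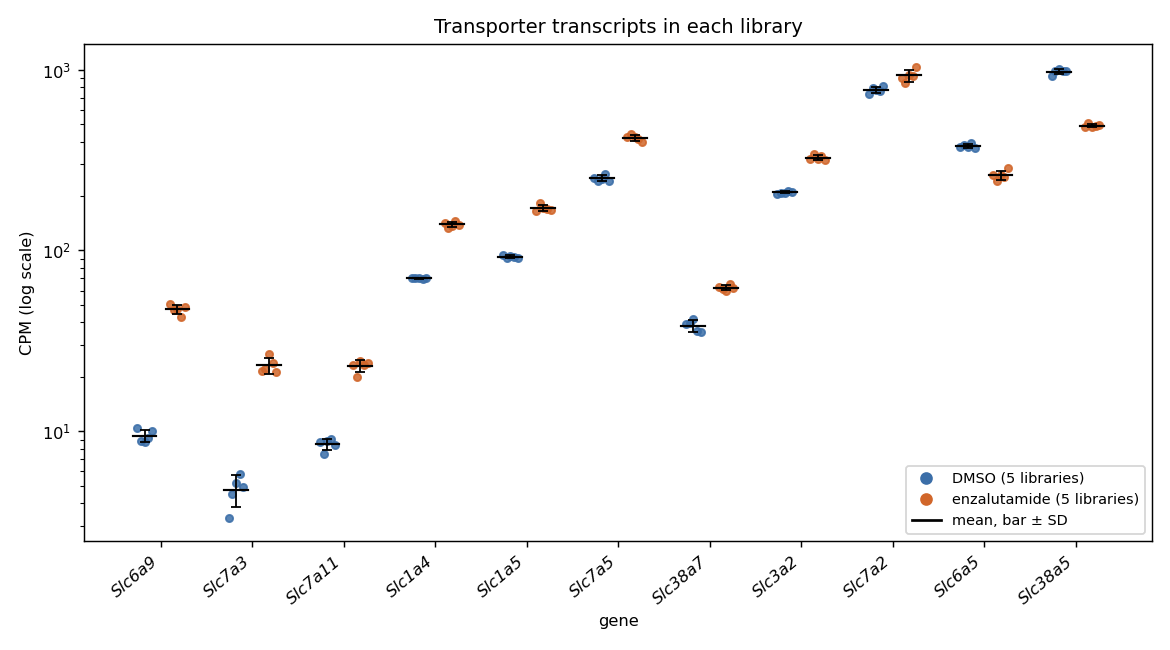
CPM on a log axis in each of the 5 DMSO and 5 enzalutamide libraries for 11 members, with the mean and SD. For each of these genes the groups do not overlap, with Slc6a5 and Slc38a5 lower in enzalutamide and the other members higher.

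The 3 members grouped here as cationic carriers, which bring arginine and lysine into cells, all rose, where 19.0% of all genes tested were called higher. Slc7a6 and Slc7a7, grouped as carriers of cationic and neutral amino acids, did not pass and are given below. Slc7a3 (CAT3; chromosome X, 101079210 to 101086020) had 3.3, 4.52, 5.19, 5.84 and 4.94 CPM in DMSO and 21.6, 22.1, 26.8, 24 and 21.2 CPM in enzalutamide. The groups were far apart, and DMSO library 1 was the lowest. The log2 fold change of Slc7a3 was 2.28 (standard error 0.116, adjusted p = 1.14e-10). Slc7a1 (CAT1), the carrier found in most cell types, rose to 237 ± 9.44 CPM from 169.7 ± 6.57 CPM in DMSO (log2 fold change 0.48, standard error 0.0353, adjusted p = 1.2e-08). Slc7a2 (CAT2; chromosome 8, 40862396 to 40922308) had 730.5, 787, 770.3, 762 and 812 CPM in DMSO and 899, 841, 933, 924 and 1038 CPM in enzalutamide. Its groups did not overlap but lay close to each other, and enzalutamide library 5 was the highest. Slc7a2 had a log2 fold change of 0.26 (95% interval 0.17 to 0.36, adjusted p = 0.000141), an interval entirely below that of Slc7a3, 2.04 to 2.53. Per length Slc7a2 still made up most of the 3 transcripts, 84.1 ± 0.0251% in DMSO and 79.1 ± 0.88% in enzalutamide. The share of Slc7a3 was 1.25 ± 0.238% and 4.79 ± 0.556%. Slc7a4 and Slc7a14 are relatives of these carriers without a settled substrate. Slc7a4 had 57 counts in all, and Slc7a14 averaged 384 ± 13.9 CPM without and 414 ± 27.2 CPM with enzalutamide with overlapping groups (adjusted p = 0.0472), a call that 13 of 20 other settings did not give.

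Exchangers that need the heavy chain CD98, encoded by Slc3a2, were uneven. Slc3a2 (chromosome 19, 8706882 to 8723369) had 206, 209, 208, 214 and 210.2 CPM in DMSO and 320.5, 339.7, 322, 332 and 317 CPM in enzalutamide. Every enzalutamide value was above every DMSO value, with a log2 fold change of 0.64 (standard error 0.0285, adjusted p = 1.94e-11). Among its light chains, Slc7a5, which encodes LAT1 and exchanges large neutral amino acids such as leucine (chromosome 8, 121881150 to 121907694), had 251, 243, 249, 266 and 242 CPM in DMSO. The enzalutamide values of Slc7a5 were 423, 440, 423, 411 and 399 CPM, again without overlap (log2 fold change 0.74, standard error 0.0339, adjusted p = 2.58e-11). Slc7a11, the light chain of the cystine and glutamate exchanger xCT (chromosome 3, 49892526 to 50443614), had 8.7, 7.45, 8.8, 9.09 and 8.45 CPM in DMSO. In enzalutamide it had 23.3, 20.01, 24.5, 23.4 and 23.8 CPM, with library 2 below the others but far above DMSO (log2 fold change 1.44, standard error 0.0717, adjusted p = 9.63e-11). The Slc7a11 promoter holds 2 matches to the ATF4 motif, as does a promoter of Slc7a7, which did not pass. A part of the motif in the rise was not tested.

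None of the other light chains was called, and 1 of them, Slc7a10, had too few counts for testing. Slc7a6, which exchanges cationic for neutral amino acids, averaged 83.1 ± 1.66 CPM without and 84.7 ± 3.49 CPM with enzalutamide, and its 95% interval of the log2 fold change was -0.05 to 0.10. Slc7a8 (LAT2) was at 26.8 ± 1.18 and 24.6 ± 1.62 CPM (log2 fold change -0.12, 95% interval -0.24 to -0.01, adjusted p = 0.0952). Slc7a7 was at 0.173 and 0.256 CPM with overlapping groups, and Slc7a10, a carrier of small neutral amino acids, had at most 19 counts in a library. Per length, Slc7a5 made up 73.5 ± 0.749% of these light chains in DMSO and 81.7 ± 1.05% in enzalutamide, and Slc7a6 19.8 ± 0.626% and 13.4 ± 0.827%. Slc7a11 made up 0.665 ± 0.0411% and 1.2 ± 0.11%, less than Slc7a6 in every library. The ratio of Slc3a2 to the sum of its light chains, per length, was 0.647 ± 0.0145 in DMSO and 0.668 ± 0.0146 in enzalutamide, ranges of 0.629 to 0.665 and 0.651 to 0.686 that overlap. Slc3a1, the heavy chain rBAT of cystine and cationic amino acid uptake in kidney, was at 0.976 and 1.22 CPM and did not pass. Its light chain Slc7a9 had no count, and 26.5% of the Slc3a1 exons overlap Prepl, which was at 128 CPM in DMSO, on the opposite strand.

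**Figure D3:**
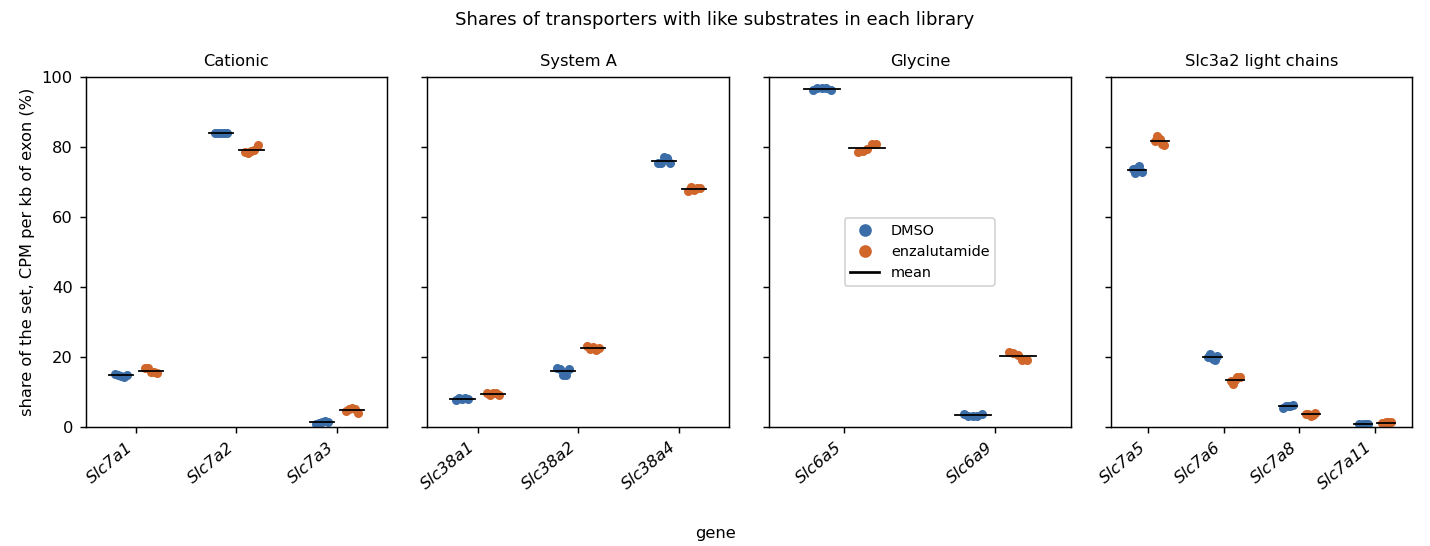
Share of each transcript in a set of carriers with like substrates or a common heavy chain, as percent of the summed CPM per kb of exon in each of the 5 DMSO and 5 enzalutamide libraries. Slc6a9 goes from 3.38% to 20.2% of the glycine pair and Slc38a4 from 76.1% to 68.1% of the system A set, while the most abundant transcript of each set is the same in both groups.

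Of the 5 tested members grouped as carriers of small neutral amino acids 4 rose and 1 fell. Of all genes tested 19.0% were called higher and 18.8% lower. Slc1a4 (ASCT1), which exchanges alanine, serine, cysteine and threonine (chromosome 11, 20302180 to 20332713), had 70.6, 70.2, 70.03, 69.4 and 70.01 CPM in DMSO. With enzalutamide Slc1a4 had 142, 133, 137, 146 and 138 CPM, near a doubling in each library (log2 fold change 0.99, standard error 0.0327, adjusted p = 3.74e-13). Slc1a5 (ASCT2), which exchanges glutamine (chromosome 7, 16781340 to 16798274), had 94.3, 91.1, 93.3, 91.9 and 90.3 CPM in DMSO and 166, 182, 171, 170 and 167 CPM in enzalutamide. The groups of Slc1a5 were far apart, with a log2 fold change of 0.89 (standard error 0.0325, adjusted p = 1.36e-12). The remaining Slc1 genes, for the glutamate carriers Slc1a1, Slc1a2, Slc1a3, Slc1a6 and Slc1a7, had at most 12 counts in any library. Slc1a7 had 0 counts in DMSO and 15 in enzalutamide, at most 4 per library.

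The system A genes Slc38a1, Slc38a2 and Slc38a4, for sodium-coupled uptake of alanine and glutamine, lie next to each other on chromosome 15 and did not move together. Slc38a2 (96687392 to 96699730) rose to 332 ± 14.1 CPM from 247 ± 12.9 CPM in DMSO (log2 fold change 0.43, standard error 0.0386, adjusted p = 1.72e-07). Slc38a1 (96571418 to 96642913) rose less, to 272 ± 9.73 CPM from 245 ± 10.2 CPM in DMSO (log2 fold change 0.15, 95% interval 0.07 to 0.22, adjusted p = 0.00279). Slc38a4 (96994820 to 97055956), best known from liver, fell to 484 ± 18.9 CPM from 573 ± 16.3 CPM in DMSO (log2 fold change -0.24, standard error 0.0313, adjusted p = 9.8e-06). All 3 had groups that did not overlap. Per length Slc38a4 made up 76.1 ± 0.882% of the 3 transcripts in DMSO and 68.1 ± 0.544% in enzalutamide, and Slc38a2 15.8 ± 0.948% and 22.5 ± 0.435%.

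Carriers of large neutral amino acids other than Slc7a5 and Slc7a8 had 2 risers among 4 tested, where 19.0% of all genes tested were called higher. Slc6a15, a sodium-coupled carrier of branched-chain amino acids and proline, rose to 66.2 ± 2.22 CPM from 47.6 ± 3 CPM in DMSO (log2 fold change 0.48, standard error 0.0459, adjusted p = 3.49e-07). Slc6a17, a carrier of synaptic vesicles, rose slightly to 232 ± 9.03 CPM from 214 ± 3.24 CPM in DMSO (log2 fold change 0.11, 95% interval 0.05 to 0.18, adjusted p = 0.00756). Slc43a2 (LAT4) was at 166 ± 6.31 and 170.3 ± 7.81 CPM, with a 95% interval of the log2 fold change from -0.04 to 0.12, and Slc43a1 (LAT3) was under 0.15 CPM in both groups. Neither passed.

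Among carriers that act at lysosomes, Slc38a9, the arginine sensor of the growth kinase complex mTORC1, averaged 16.6 ± 0.841 CPM without and 19.2 ± 1.61 CPM with enzalutamide. It passed (log2 fold change 0.21, adjusted p = 0.0171) although its groups overlapped, and without enzalutamide library 3 the adjusted p was 0.053. Slc36a1 (PAT1) and Slc36a4 (PAT4), which move proline among other amino acids, did not pass. Their 95% intervals of the log2 fold change were -0.14 to 0.18 and -0.11 to 0.10. Slc36a1 was at 12.7 and 12.9 CPM and Slc36a4 at 81.2 and 81.1 CPM in DMSO and enzalutamide.

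The Slc6 family also carries amino acid derivatives. The creatine carrier gene Slc6a8 rose to 43.3 ± 4.74 CPM from 31.8 ± 2.02 CPM in DMSO (log2 fold change 0.45, standard error 0.0682, adjusted p = 5.45e-05). The taurine carrier gene Slc6a6 was at 50.6 ± 1.31 and 51.1 ± 2.38 CPM, with a 95% interval from -0.08 to 0.10 on the log2 scale. Slc6a13, a GABA carrier, was at 0.272 ± 0.0998 and 0.125 ± 0.0343 CPM and did not pass (adjusted p = 0.062, and 0.0311 without DMSO library 1). The noradrenaline carrier gene Slc6a2 had 0 counts, and those of dopamine (Slc6a3) and serotonin (Slc6a4) at most 8 in a library.

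Members without an assigned amino acid substrate changed little. Slc38a10, a poorly characterised member, fell to 115 ± 4.29 CPM from 125 ± 2.79 CPM in DMSO (log2 fold change -0.12, adjusted p = 0.0104, and 0.0621 with libraries scaled to total counts). Slc7a6os, a neighbour of Slc7a6 that the naming rule takes in and that encodes no carrier, fell to 43.2 ± 3.17 CPM from 49.6 ± 1.95 CPM in DMSO (log2 fold change -0.20, adjusted p = 0.00496). Slc38a6 at 7.93 and 8.32 CPM and Slc7a15 at 1.03 and 0.996 CPM did not pass. The 13 entries with counts below the limit for testing had at most 35 counts in any library, reached by Slc6a20b, a relative of the proline carriers whose exons overlap Sacm1l on the opposite strand.

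**Figure D4:**
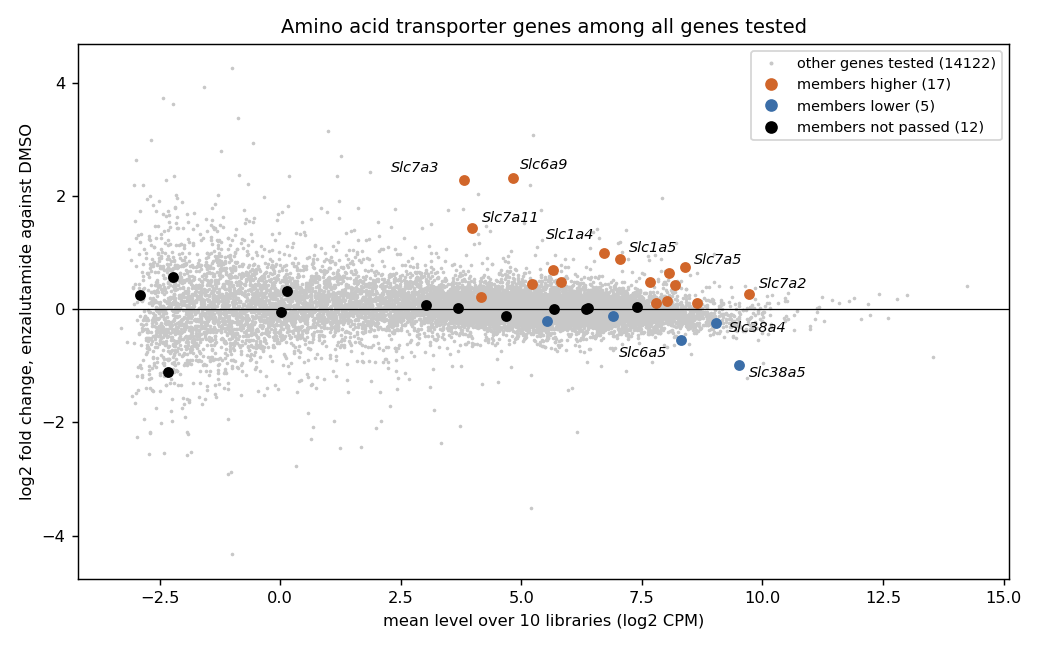
Log2 fold change of enzalutamide against DMSO plotted against mean log2 CPM for all 14156 genes tested, with the 34 members in colour by their call. Slc38a5 and Slc7a2 lie at the high end of expression, and Slc6a9 and Slc7a3 lie above most genes of their level.

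The 4 lists of related genes were read from the same fit, in which 37.8% of all genes were called, 19.0% higher and 18.8% lower. They were chosen with earlier results of these data known, so their counts are no test of the lists. Of 15 tested amino acid carriers of other families 5 rose and 4 fell, with a median log2 fold change of -0.04. Slc25a22, a mitochondrial glutamate carrier (0.35), Slc25a44, a mitochondrial carrier of branched-chain amino acids (0.28), and Ctns, which exports cystine from lysosomes (0.37), rose on the log2 scale, and Slc16a10, a carrier of aromatic amino acids, fell (-0.22). Of 24 tested regulators of amino acid sensing and response 15 rose and 4 fell, with a median of 0.24. The stress factor genes Atf5 (1.97), Ddit3 (1.76) and Trib3 (3.07) and the leucine sensor gene Sesn2 (0.88) had the lowest adjusted p. Atf4 itself, named after its value was seen, rose by a log2 fold change of 0.64 (adjusted p = 1.93e-09).

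Of 33 tested enzymes of amino acid and glutathione metabolism 16 rose and 2 fell, with a median of 0.10. Leading them by adjusted p were Chac1 (2.19), which degrades glutathione, Gpt2 (1.40), a mitochondrial alanine transaminase, Cth (2.04), which forms cysteine, and Phgdh (0.95), which starts serine synthesis from a glycolytic intermediate. Of 7 tested partners and turnover factors of the carriers 1 rose and 3 fell. Sgk1, a kinase that raises the surface level of several carriers, rose (0.17). Tmem27, a partner of Slc6a19 in kidney (-0.46), Arl6ip5, which restrains Slc1a1 (-0.20), and Otub1, which stabilises the Slc7a11 protein in human cells (-0.13), fell, while Slc6a19 had no count and Slc1a1 had 15 counts in all.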

How the data were processed

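Libraries were grouped by the treatment in their titles. The authors deposited whole-number counts per Ensembl gene, and HISAT2, StringTie, DESeq2 and the mm10 build appear in the submitters' processing notes without roles or versions. The sources used here do not say whether the counts are reads or StringTie estimates, nor how strand was handled. A second deposited table holds the authors' scaled signal, which returned the counts to within 0.000416 when multiplied by DESeq2's size factors (14037 tested genes) and served an alternative. No column (0) of per-library values was left unused.

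The count test used edgeR 4.0.16 in R 4.3.3, with filterByExpr, trimmed mean of M values scaling, a quasi-likelihood test without covariates, and Benjamini-Hochberg adjustment over 14156 genes at 0.05. CPM use scaled library sizes, each ± is an SD over 5 libraries, each standard error is the size of the log2 change over the root of its F statistic, and intervals are 95% from the t distribution. All tests are two-sided, and limits for 0 counts cover counting error only. The biological coefficient of variation was 8.39%. Pairs of libraries within a group differed beyond sampling noise (chi-square over its degrees of freedom, 8.98 to 35.3), and p-values rest on the spread among the 5 libraries of a group, which may be technical. Positions and exon lengths come from GENCODE M21, which holds 96.3% of the identifiers. The script was tested on simulated data.

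The members, lists and motifs were chosen with earlier results of these data known. Named were 5 marker genes, every tested member and, per list, up to 4 called genes with the lowest adjusted p. Per-library values are given for the 5 markers and for called members with an absolute log2 fold change of at least 0.5. Alternatives were relative log expression or total-count scaling, no filter, a mean CPM of at least 1, DESeq2 1.42.0, limma 3.58.1 (voom, or trend on log2 signal with a pseudocount of 1 or 8), the replicate number as a block, leaving out each library, a 2-fold minimum, and, added after the data were seen, removal of GC and length trends.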

Additional observations from a re-analysis of the deposited data

Results flagged for a closer look

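In 5 of 68 groups of 5 values, 1 library lay apart from the other 4 by Dixon's criterion at a critical value of 0.71, and chance alone marks about 1 group in 20. Enzalutamide library 2 gave 3 of them. In it Slc38a1 was at 255 CPM, below the next value of 273 CPM, Slc7a11 at 20.01 CPM, below 23.3 CPM, and Slc1a5 at 182 CPM, above 171 CPM. Slc38a4 was at 517 CPM in enzalutamide library 5, above 479.8 CPM. Slc7a14 was at 409 CPM in DMSO library 5, above 379.7 CPM. Without enzalutamide library 2 17 members rose and 5 fell, and without enzalutamide library 5 16 rose and 5 fell.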

How the results depend on the processing

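Tested members were set against each alternative other than the 2-fold minimum, 677 comparisons in all. Of these 661 kept direction and side of the threshold or had no call in either. In 15 the call was lost, in 1 gained and in 0 reversed. The changes fell on 4 members, Slc7a14, Slc38a9, Slc38a10 and Slc6a13. Counts of members that rose were 15 to 17 and of those that fell 5 to 6 when 1 library was left out, and 4888 to 5354 genes were called in all, 2446 to 2669 higher and 2433 to 2685 lower. Requiring a 2-fold change left 3 members higher and 0 lower, and 247 genes in all, 146 higher and 101 lower, where fewer genes can pass by construction. With total-count scaling 60.7% of called genes were higher, against 50.3%, and 17 members rose and 4 fell. Without a filter on low counts 17 members rose and 5 fell. In that setting Slc1a7, not tested in the main fit, passed (edgeR adjusted p = 0.033, with 0 counts in DMSO and 15 in enzalutamide). The replicate number as a block gave 17 higher and 5 lower members and 5296 calls in all, and no member's call changed. Same-numbered deviations correlated between -0.055 and 0.105, against -0.112 to 0.119 over all pairs of a DMSO and an enzalutamide library. In only 1 of 5 pairs did a DMSO library correlate best with its own number. Whether the numbers pair the samples cannot be told from these values, and the labels do not say. With GC and length trends removed 17 members rose and 5 fell. Members of low expression, such as Slc7a7 and Slc43a1, have intervals too wide to show changes of the size seen in others.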
